A study of Mus musculus with 12 samples.

Results

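The 10 genes described here start the classical and the lectin pathway of complement. They were taken by name from the deposited count table as the C1q chains (C1qa, C1qb, C1qc), the C1 proteases (C1ra, C1s1), C2, both C4 genes (C4a, C4b) and the lectin pathway proteases (Masp1, Masp2). All 10 of the 10 names were found among 56860 genes, all had counts in each of 12 libraries, and all passed the filter on low counts that left 30660 genes for testing.

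RNA came from primary mammary tumours of mice with the MMTV-PyMT oncogene, taken at 4.5 months. All 3 genotypes carried the oncogene, which is polyoma middle T under a promoter active mainly in mammary epithelium, and each had 4 libraries. By the design text WT mice also had MMTV-Cre, although their strain label gives only MMTV-PyMT. C3_KO mice carried MMTV-Cre and the C3Tdt allele, and S1pr1_KO mice carried MMTV-Cre and S1pr1fl/fl. Cre is driven by the MMTV promoter in both, so that other cells of a tumour, such as macrophages and fibroblasts, can keep the targeted gene. The study asked what the loss of complement C3, or of S1pr1, a receptor of the lipid sphingosine-1-phosphate, does to these tumours.

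In the classical pathway, C1q binds antibody on a surface and activates the proteases C1r and C1s, and C1s cleaves C4 and then C2. The lectin pathway reaches the same step when mannose-binding lectin or a ficolin binds sugars and activates the MASP proteases. Fragments of C4 and C2 join into the convertase that cleaves C3, so these genes act upstream of the gene targeted in C3_KO. Most plasma complement is made by hepatocytes, but C1q is made mainly by macrophages and related myeloid cells, and fibroblasts are a known local source of C1r and C1s.

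The labels were first checked against the genes they concern. C3 was at 43.3 to 182 counts per 1000000 counts of a library (CPM) in WT, 41.6 to 75.1 CPM in C3_KO and 43.4 to 273 CPM in S1pr1_KO, and these ranges overlap. S1pr1 was at 2.88 to 8.02 CPM in WT, 5.94 to 9.94 CPM in C3_KO and 2.59 to 7.43 CPM in S1pr1_KO. Neither level separated the strain in which the gene was targeted from WT, so the RNA level gave no check of those labels. Epithelial markers such as Krt8 and Krt18 were high in all 12 libraries, with a sum over 8 markers of 2406 to 7286 CPM. Some libraries stood apart: C3_KO replicate 3 held 69106 CPM of 5 milk protein genes, S1pr1_KO replicate 1 held 145251 CPM of 6 salivary gland genes, and replicates 1 and 2 of S1pr1_KO held 141 and 79.8 CPM of 7 B cell markers against at most 12.3 CPM in any other library. The 6 hepatocyte markers summed to 1.43 to 46.4 CPM. Alb, which codes for albumin, was at or below 0.527 CPM in every library, while Fgb, a fibrinogen gene, reached 45.9 CPM in C3_KO replicate 1, Ttr 8.47 CPM in S1pr1_KO replicate 1 and Ahsg 7.32 CPM in WT replicate 3.

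Sequences of 2 kinds are shown: promoters of the members for which a window was found, and the stretch in which the near-identical C4 genes differ most. Not all of the members with a window moved together across tumours. RefSeq promoter windows, from 250 bases before to 50 bases after a start site on build GRCm38.p6, were found for 5 of the 10 members. Capitals mark the letters GAGGAA or AGGAAG on either strand, motifs that overlap where the first is followed by a G. The first is the core bound by the myeloid transcription factor PU.1, and both hold the core of its ETS family. The windows lie at chr4:136886151-136886450 (minus strand) for C1qb, chr4:136892865-136893164 (minus strand) for C1qc, chr6:124512371-124512670 (plus strand) for C1ra, chr6:124542310-124542609 (minus strand) for C1s1 and chr4:148602294-148602593 (plus strand) for Masp2, each printed 5′ to 3′ along its gene.
C1qb: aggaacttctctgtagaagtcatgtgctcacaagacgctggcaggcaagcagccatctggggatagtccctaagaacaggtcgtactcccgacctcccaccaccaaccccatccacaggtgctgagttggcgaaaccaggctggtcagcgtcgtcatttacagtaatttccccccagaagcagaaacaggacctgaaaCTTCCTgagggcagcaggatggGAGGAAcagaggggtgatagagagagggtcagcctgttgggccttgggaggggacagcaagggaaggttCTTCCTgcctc
C1qc: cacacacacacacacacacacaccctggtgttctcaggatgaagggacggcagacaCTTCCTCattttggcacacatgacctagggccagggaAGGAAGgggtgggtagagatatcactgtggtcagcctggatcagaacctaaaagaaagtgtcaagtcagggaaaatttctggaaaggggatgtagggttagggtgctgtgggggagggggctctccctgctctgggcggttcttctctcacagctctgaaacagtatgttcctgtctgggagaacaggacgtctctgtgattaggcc
C1ra: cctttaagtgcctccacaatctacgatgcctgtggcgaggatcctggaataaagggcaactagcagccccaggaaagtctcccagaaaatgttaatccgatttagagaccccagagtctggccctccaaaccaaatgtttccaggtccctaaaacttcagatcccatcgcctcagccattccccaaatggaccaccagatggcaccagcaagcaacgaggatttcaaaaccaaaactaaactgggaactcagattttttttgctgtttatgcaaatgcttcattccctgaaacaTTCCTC
C1s1: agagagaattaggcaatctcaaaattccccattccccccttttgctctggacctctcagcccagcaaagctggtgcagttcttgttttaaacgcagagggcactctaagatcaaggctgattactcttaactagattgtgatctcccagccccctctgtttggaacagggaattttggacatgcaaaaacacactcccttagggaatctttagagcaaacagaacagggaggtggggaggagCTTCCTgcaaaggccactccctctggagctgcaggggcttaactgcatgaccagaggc
Masp2: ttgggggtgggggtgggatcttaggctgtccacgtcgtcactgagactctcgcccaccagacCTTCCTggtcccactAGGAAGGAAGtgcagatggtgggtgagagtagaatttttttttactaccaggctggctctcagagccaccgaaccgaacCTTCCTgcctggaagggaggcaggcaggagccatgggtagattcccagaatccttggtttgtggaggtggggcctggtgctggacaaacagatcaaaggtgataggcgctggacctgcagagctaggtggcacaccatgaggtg
The C1qb and C1qc windows each held 1 match to GAGGAA and 2 to AGGAAG. The C1ra window held 1 match to GAGGAA, and the C1s1 window held 1 to AGGAAG. The Masp2 window held 4 matches to AGGAAG and none to GAGGAA. For comparison, GAGGAA was found in 28.3% and AGGAAG in 35.4% of 32851 promoters of the same length, so each is common. The STAT factor letters TTCNNNGAA, found in 8.3% of promoters, occurred 1 time each in the C1ra and Masp2 windows and in none of the other 3. A match is a description of the letters and not a binding site, and the motifs were chosen after the windows had been read.

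C4b is the gene of active mouse C4, and C4a is its close copy, historically called sex-limited protein. In the older GENCODE annotation at hand, the longest C4b and C4a transcripts were 96.1% identical, with 207 mismatches over 5367 aligned bases. The window below is the most different stretch of 60 aligned columns, of which 21 differ, and capitals mark the differing bases. It covers bases 2301 to 2360 of the C4b transcript and 2304 to 2354 of the C4a transcript, where C4a lacks 9 bases.
C4b: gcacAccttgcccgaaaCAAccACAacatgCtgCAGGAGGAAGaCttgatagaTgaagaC
C4a: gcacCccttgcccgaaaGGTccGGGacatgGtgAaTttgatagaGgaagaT
Elsewhere the longest identical run was 433 bases. Of all 100-base stretches of either transcript, 16.5% occur in both, and a read from such a stretch cannot be given to 1 gene by its sequence.

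The same question arose for other members. None of the 100-base stretches of the 3 C1q chains or of Masp1 occurred in a transcript of another gene. For C1ra, 35.9% of them occurred in another gene, mainly the copy C1rb, and for C1s1 570 of 2847 did, in the copy C1s2 and in Gm16567, which overlaps C1s1 on the opposite strand. For C2 the share was 53.2%, all through Gm20547, a gene model on the same strand that reaches from C2 into Cfb. For Masp2 it was 55.6%, through Tardbp, which lies on the opposite strand and codes for the RNA-binding protein TDP-43. How the counting treated strand and shared reads is not given in the sources used here, so the levels of C1ra, C1s1, C2, C4a and Masp2 are uncertain to this extent.

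Levels between genes were compared in FPKM, which divides the count by the gene length. The deposited lengths of C1qc, C2 and Masp1 were 1931, 3872 and 9833 bases. Their longest transcripts in the older annotation had 1203, 2641 and 5345 bases, while for C1qa, C1qb and C1ra both lengths were the same. A shorter length gives a higher FPKM, so the place of C1qc in the order and its ratio to C1qa depend on the length used. The mean over 12 libraries was 105 FPKM for C1qa, 95.7 for C1qb, 57.6 for C4b and 37.4 for C1qc. It was 11.0 FPKM for C1s1, 9.58 for C1ra, 3.96 for Masp2, 3.31 for C4a, 3.04 for C2 and 0.417 for Masp1. Recognition chains and C4b thus stood above the proteases and C2 in these tumours. Some neighbours in this order were not told apart: C1qa exceeded C1qb in 8 of 12 libraries, C1s1 exceeded C1ra in 7, Masp2 exceeded C4a in 8 and C4a exceeded C2 in only 5. The steps from C1qc to C1s1 and from C2 to Masp1 held in 12 of 12 libraries. Of the members whose counts share no stretch with another gene, Masp1 was the lowest.

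**Figure D1:**
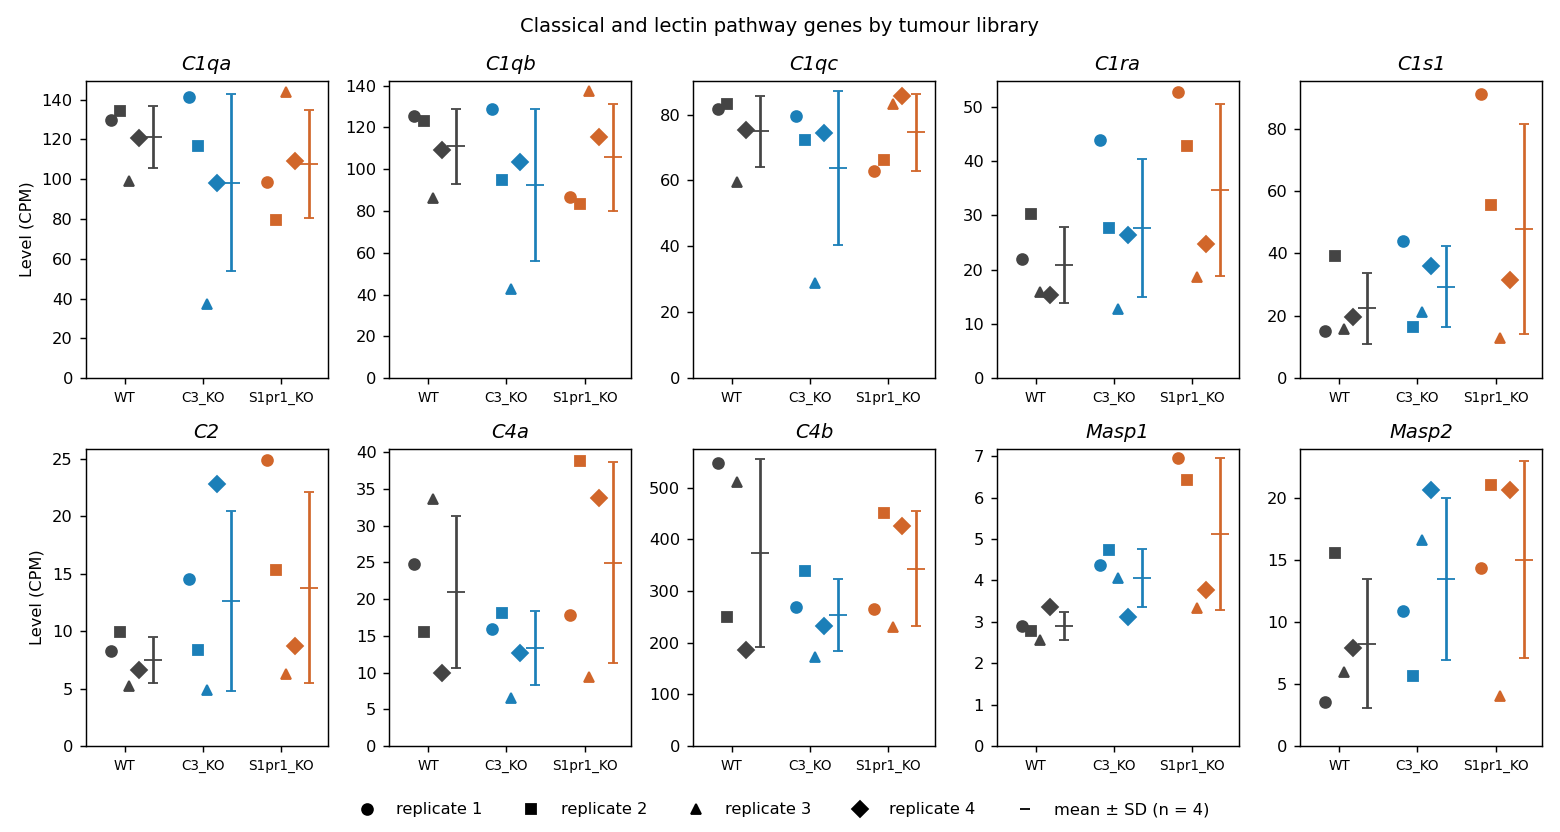
Level of each member in CPM (y axis, linear from 0) by genotype (x axis), with 1 point for each library, marker shapes for replicates 1 to 4, and a bar for the mean ± SD of 4 libraries. The genotypes overlap for all 10 genes, and the triangle of C3_KO replicate 3 lies far below the other C3_KO libraries for the 3 C1q chains, at 37.2, 42.6 and 29.0 CPM.

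The C1q chains form the recognition molecule of the classical pathway, each chain coded by its own gene. In the order of replicates 1 to 4, C1qa was at 129.9, 134, 99.2 and 120.5 CPM in WT. It was at 141, 117, 37.2 and 97.9 CPM in C3_KO, and at 98.4, 79.4, 144 and 109 CPM in S1pr1_KO. WT was the tightest group (121 ± 15.6 CPM, SD, n = 4), while C3_KO replicate 3 was the lowest of all 12 libraries and S1pr1_KO replicate 3 the highest. C1qb was at 125, 123, 86.4 and 109 CPM in WT, at 129, 94.9, 42.6 and 103 CPM in C3_KO, and at 86.7, 83.2, 137 and 115 CPM in S1pr1_KO. C1qc was at 81.8, 83.2, 59.4 and 75.2 CPM in WT, at 79.7, 72.2, 29.0 and 74.4 CPM in C3_KO, and at 63.0, 66.3, 83.4 and 85.7 CPM in S1pr1_KO. The same library, C3_KO replicate 3, was lowest for all 3 chains, and the groups overlapped for each.

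The 3 chains kept close to a fixed proportion. The ratio of C1qb to C1qa in FPKM lay between 0.778 and 1.09 over the 12 libraries, and that of C1qc to C1qa between 0.304 and 0.450, while C1qa itself varied 3.87 times from the lowest to the highest library in CPM. In WT the second ratio was 0.333 ± 0.0072 (SD, n = 4). The difference in log2 C1qc to C1qa was 0.13 between C3_KO and WT and 0.18 between S1pr1_KO and WT, with p = 0.40 and p = 0.314 in two-sided exact permutation tests. Neither difference passed.

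The C1 proteases C1r and C1s are held by C1q, and C1s is the one that cleaves C4 and C2. C1ra was at 22.1, 30.3, 15.9 and 15.3 CPM in WT, at 43.9, 27.7, 12.7 and 26.3 CPM in C3_KO, and at 52.8, 42.8, 18.6 and 24.7 CPM in S1pr1_KO. C1s1 was at 15.1, 39.2, 15.6 and 19.6 CPM in WT, at 44.1, 16.3, 21.2 and 35.96 CPM in C3_KO, and at 91.3, 55.7, 12.9 and 31.5 CPM in S1pr1_KO. For C1s1 both extremes of the series were S1pr1_KO libraries, replicate 1 the highest and replicate 3 the lowest, 7.05 times apart. The ratio of C1s1 to C1ra in FPKM ranged from 0.559 to 1.65, a wider spread than within the C1q chains.

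C2 supplies the protease of the C3 convertase. C2 was at 8.23, 9.91, 5.22 and 6.57 CPM in WT, at 14.5, 8.38, 4.87 and 22.7 CPM in C3_KO, and at 24.8, 15.3, 6.29 and 8.67 CPM in S1pr1_KO. Replicate 1 of S1pr1_KO and replicate 4 of C3_KO were the highest, and replicate 3 was the lowest library in each of the 3 genotypes, although the replicate number itself only names a library. Gm20547, the gene model that spans C2 and Cfb, had 101 to 121% of the Cfb count, and its count beyond that of Cfb came to 23.4 to 66.2% of the C2 count.

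C4 provides the other component of that convertase, and it was the member with the highest read count. C4b was at 548, 251, 511 and 187 CPM in WT, at 268, 339, 172 and 233 CPM in C3_KO, and at 265, 451, 231 and 426 CPM in S1pr1_KO. WT split into a pair of libraries at 548 and 511 CPM and a pair at 251 and 187 CPM, S1pr1_KO split into pairs as well, at 451 and 426 CPM and at 265 and 231 CPM, and C3_KO did not. C4a was at 24.8, 15.6, 33.6 and 10.0 CPM in WT, at 15.9, 18.1, 6.55 and 12.7 CPM in C3_KO, and at 17.9, 38.9, 9.40 and 33.7 CPM in S1pr1_KO. Reads assigned to C4a were 3.67 to 7.94% of those assigned to the C4 genes together. That share was 5.36 ± 0.827% in WT, 4.87 ± 0.835% in C3_KO and 6.38 ± 1.78% in S1pr1_KO (SD, n = 4), with no difference past its exact permutation test (p from 0.229 to 0.457). How much of it comes from shared stretches was not tested.

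MASP1 activates MASP2, which cleaves C4 and C2 in the lectin pathway. Masp1 was at 2.89, 2.77, 2.57 and 3.36 CPM in WT, at 4.36, 4.74, 4.05 and 3.11 CPM in C3_KO, and at 6.95, 6.44, 3.34 and 3.77 CPM in S1pr1_KO. WT was low and narrow, and its highest library lay above the lowest library of each knockout strain by a small margin. Masp2 was at 3.56, 15.6, 5.97 and 7.90 CPM in WT, at 10.9, 5.67, 16.6 and 20.6 CPM in C3_KO, and at 14.4, 21.1, 4.00 and 20.6 CPM in S1pr1_KO. Masp2 counts were 2.69 to 10.5% of the counts of Tardbp, the abundant gene that overlaps it. Across libraries log2 CPM of Masp2 and Tardbp had r = 0.81 and rho = 0.85 (p = 0.00129 and p = 0.00077 by permutation, n = 12), and r = 0.66 without the 2 libraries farthest from the median of Masp2. The part of Tardbp reads in the Masp2 count was not tested.

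Differences between genotypes were tested with edgeR's quasi-likelihood test on all genes, with Benjamini-Hochberg adjustment over 30660 genes. No member was called at an adjusted p under 0.05 in C3_KO against WT, where the share of all genes called was 0%, and no member was under an unadjusted p of 0.05, against 6.23% of all genes. No member had groups that did not overlap, against 3.04% of all genes. By fitted log2 fold change C3_KO lay above WT for 5 of 10 members, against 54.2% of all genes, with a median of 0.08 for the members and 0.05 for all genes. DESeq2 called none of the members and 84 of all genes (0.24%), limma-voom with quality weights none and 5 (0.0163%), and limma on log2(FPKM + 1) none and 1. The 3 C1q chains and both C4 genes had values below 0, and the 4 proteases and C2 had values above 0. The fitted log2 fold change, with its standard error (SE), was -0.30 (SE 0.33) for C1qa, -0.56 (SE 0.37) for C4b and 0.76 (SE 0.49) for C2, with adjusted p of 0.831, 0.765 and 0.765 from edgeR.

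The 95% intervals show what size of difference these libraries leave possible. For C1qa in C3_KO against WT the interval ran from -1.02 to 0.41 on the log2 scale, and for Masp2, the widest, from -0.48 to 1.89. For C1qc the interval ran from -0.83 to 0.37. Without C3_KO replicate 3 the C1qc value was 0.01 in place of -0.23, the C1qa value -0.03 in place of -0.30 and the C1qb value -0.03 in place of -0.26, so that 1 library carried most of each.

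In S1pr1_KO against WT the values for the proteases, C2 and the MASPs were larger, and again no member was called, with 0% of all genes called. Markers of several cell types lay higher in S1pr1_KO by the same fit, although none was called. The median log2 fold change was 7.30 for 6 salivary gland, 4.22 for 7 B cell and 2.71 for 7 adipocyte markers. It was 1.55 for 7 dendritic cell, 0.88 for 9 fibroblast, 0.85 for 8 endothelial and 0.45 for 14 macrophage markers. Epithelial, milk protein and hepatocyte markers had medians of -0.44, -0.60 and -1.51. Adipocyte markers summed to 437 and 371 CPM in S1pr1_KO replicates 1 and 2 against at most 157 CPM in any other library. B cell markers were highest in the same libraries, which were also the highest 2 for C1s1 and for Masp1. S1pr1_KO replicate 3 held 42.2 CPM of salivary gland, 2.59 CPM of B cell and 33.0 CPM of adipocyte markers, each within the WT range. The part of these cell types in the differences of the members was not tested. Masp1 was the 1 member under an unadjusted p of 0.05, against 15.5% of all genes, with a log2 fold change of 0.82 (SE 0.30, 95% interval 0.17 to 1.47, adjusted p = 0.254 from edgeR). Its highest WT library, at 3.36 CPM, lay above the lowest S1pr1_KO library, at 3.34 CPM, and no member had groups that did not overlap, against 7.58% of all genes. C1s1 had the largest value among the members, 1.09 (SE 0.52, adjusted p = 0.337), followed by C2 with 0.88 (SE 0.49, adjusted p = 0.394) and Masp2 with 0.86 (SE 0.55, adjusted p = 0.458). C1ra had 0.73 (SE 0.40, adjusted p = 0.385). The C1q chains lay near 0, with -0.17 for C1qa, -0.07 for C1qb and -0.01 for C1qc, and so did C4b with -0.12 and C4a with 0.25. S1pr1_KO lay above WT for 6 of 10 members, against 51.7% of all genes, and the median was 0.49 for the members and 0.03 for all genes.

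This comparison depended on the test. DESeq2 called none of the members and 901 of all genes (3.02%), and limma on log2(FPKM + 1) called none and 46. Limma-voom with quality weights, which gives each library its own weight, called 4 members higher: C1ra with a log2 fold change of 1.01 (adjusted p = 0.0347), C1s1 with 1.28 (adjusted p = 0.0279), Masp1 with 0.86 (adjusted p = 0.0240) and Masp2 with 1.28 (adjusted p = 0.0308). The same test called 7837 of all genes, or 25.6%, so 4 of 10 members stand against that share. In edgeR, leaving out S1pr1_KO replicate 3, the lowest library for C1s1, raised the number of all genes called from 0 to 1330, and still none of the 10 members was called.

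S1pr1_KO and C3_KO were compared with the same WT libraries, so their values are set side by side only. The direct comparison of the knockout strains uses the same 8 knockout libraries and the same fit, so the 3 comparisons are not independent. In S1pr1_KO against C3_KO no member was called, with 0% of all genes called, and none was under an unadjusted p of 0.05, against 3.4% of all genes. No member had groups that did not overlap, against 1.31% of all genes. S1pr1_KO lay above C3_KO for 10 of 10 members, against 46.2% of all genes, with a median of 0.28 for the members and -0.03 for all genes. The values ran from 0.13 for C2 to 0.91 (SE 0.47) for C4a, with adjusted p of 1.00 for each from edgeR. DESeq2 called none of the members and 121 of all genes (0.373%), and limma-voom and limma on log2(FPKM + 1) called none of the members. Without C3_KO replicate 3 the values for C1qa, C1qb, C1qc and C2 were -0.14, -0.05, -0.02 and -0.15, so the common direction did not hold without that library.

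**Figure D2:**
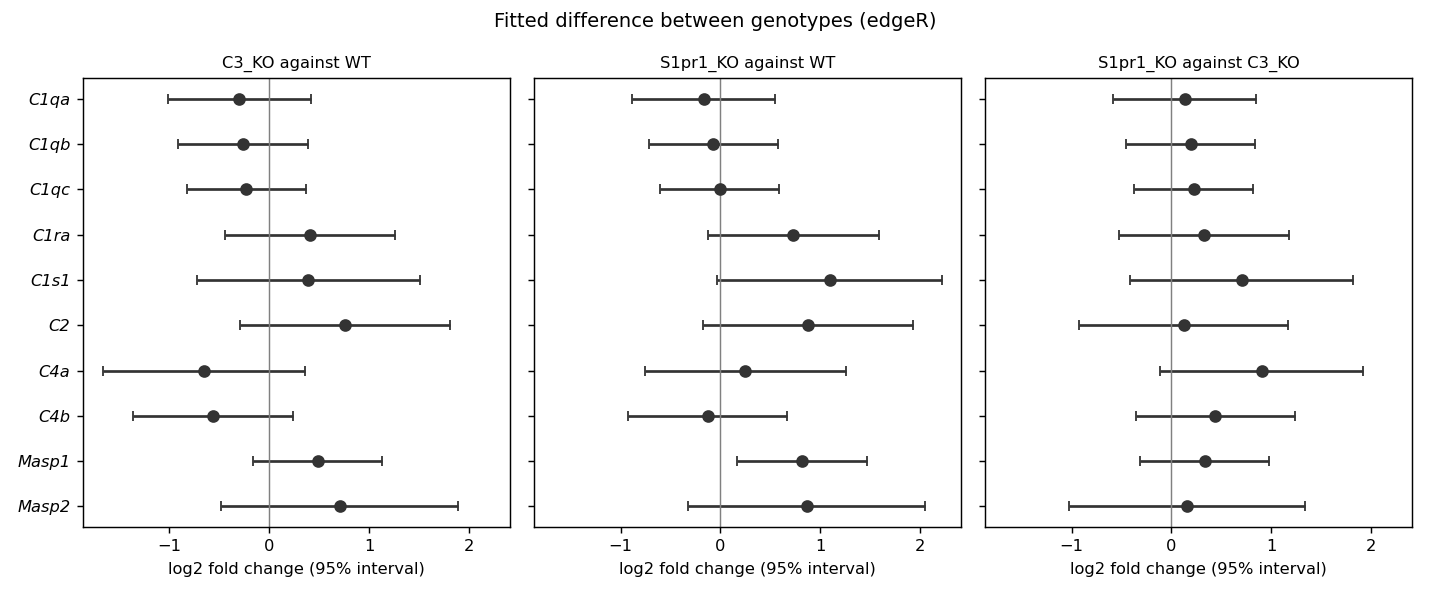
Log2 fold change (x axis) of each member (y axis) in the 3 comparisons from edgeR's fit to 12 libraries, where points are fitted values and bars are 95% intervals. The intervals include 0 for all members except Masp1 in S1pr1_KO against WT, at 0.82 with an interval from 0.17 to 1.47 that is not adjusted for the number of genes.

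The members fell into blocks by how they varied from tumour to tumour. Correlations of log2 CPM over 12 libraries were computed for 45 pairs of members and for 36 further pairs with overlapping genes or marker lists, 81 in all, with p-values from 100000 permutations and Benjamini-Hochberg adjustment over the 81. Of the 45 pairs, 8 had an adjusted p under 0.05, and they lay in 3 blocks. The points share a library and its depth, and these relations were chosen for testing after the levels had been seen.

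The C1q chains made up the first block. C1qa and C1qb had r = 0.97 and rho = 0.92 (adjusted p = 0.00027 and 0.00081, permutation, n = 12), and C1qb and C1qc had r = 0.97 and rho = 0.88 (adjusted p = 0.00027 and 0.00273, permutation, n = 12). C1qa and C1qc had r = 0.94 and rho = 0.74 (adjusted p = 0.00451 and 0.032, permutation, n = 12). Without the 2 libraries farthest from the median of the first gene of each pair, r was 0.87, 0.91 and 0.71, in the same order. Within genotypes, after each genotype's mean was taken off, r was 0.97, 0.97 and 0.95. The smallest p that the permutations can give, 1e-05, was reached by the first 2 pairs.

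C4a and C4b made up the second block, with r = 0.92 and rho = 0.92 (adjusted p = 0.000648 and 0.00162, permutation, n = 12) and r = 0.90 without the 2 farthest libraries. The third block held C1ra, C1s1 and C2, and Masp2 joined it through C1s1 alone. C1ra and C2 had r = 0.86 and rho = 0.89 (adjusted p = 0.00331 and 0.00273, permutation, n = 12), C1s1 and C2 had r = 0.83 and rho = 0.80 (adjusted p = 0.00424 and 0.0122), and C1ra and C1s1 had r = 0.82 and rho = 0.75 (adjusted p = 0.00653 and 0.032). C1s1 and Masp2 had r = 0.75 and rho = 0.74 (adjusted p = 0.0252 and 0.032, permutation, n = 12). Without the 2 farthest libraries these 4 values of r were 0.75, 0.71, 0.81 and 0.81. Masp2 had r = 0.36 with C1ra and r = 0.50 with C2 (adjusted p = 0.465 and 0.231, permutation, n = 12). With the overlapping gene Tardbp it had r = 0.81, above its r with C1s1, and the part of Tardbp reads in that link was not tested. C4a and C4b share stretches of sequence, and the part of shared reads in their correlation was not tested either.

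Between the blocks r ranged from -0.46 for C1qa with Masp2 to 0.41 for C1ra with C4a, and no pair had an adjusted p under 0.05. C1qa and Masp2 had rho = -0.65 (p = 0.0258 and adjusted p = 0.0909, permutation, n = 12). C1q holds the C1 proteases in 1 complex, and their levels showed little common variation. C1qa and C1s1 had r = -0.09 and rho = -0.36 (p = 0.802 and p = 0.246, permutation, n = 12), and C1qa and C1ra had r = 0.31 and rho = 0.07 (p = 0.353 and p = 0.835). C2 and C4b, which supply the same convertase, had r = 0.00 and rho = 0.16 (p = 1.00 and p = 0.621, permutation, n = 12). C2 and the C4 genes lie close together in the MHC class III region. Masp1 had r = 0.65 with both C1ra and C1s1 (adjusted p = 0.0639 and 0.0667, permutation, n = 12), and the second fell to 0.13 without S1pr1_KO replicates 1 and 2, on which it rests.

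**Figure D3:**
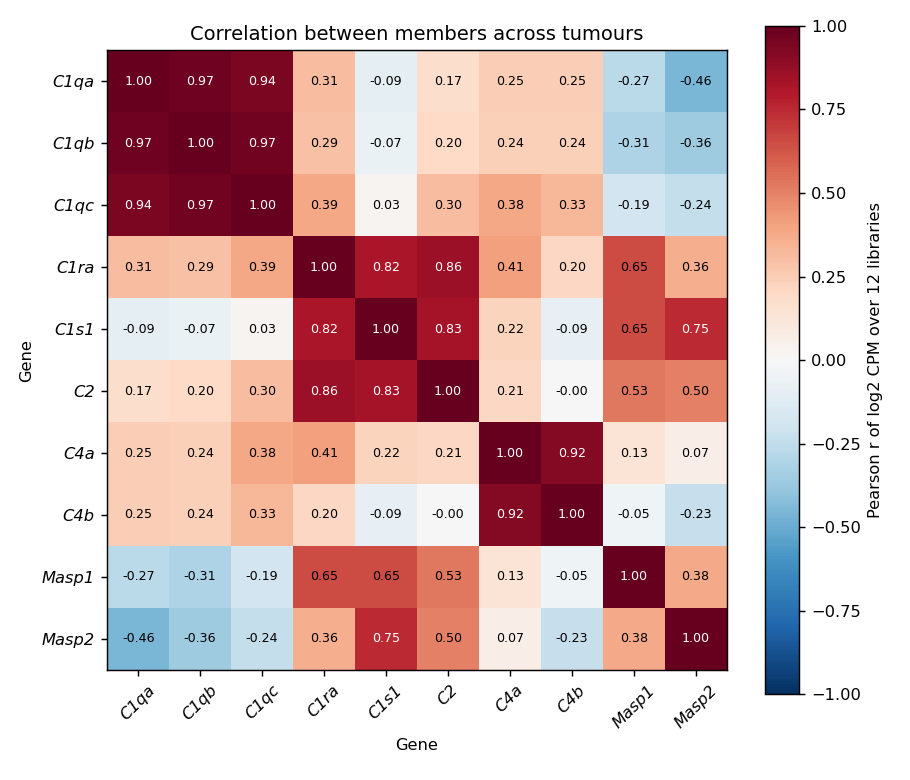
Pearson correlation of log2 CPM between members over 12 libraries, with genes on both axes and colour from -1 to 1. The C1q chains (0.94 to 0.97), C1ra with C1s1 and C2 (0.82 to 0.86) and C4a with C4b (0.92) form separate blocks, and C1qa with C1s1 is at -0.09. The part of reads from shared stretches in the value of C4a with C4b was not tested.

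The counts of close copies and overlapping genes followed their partners. C1s1 and Gm16567, which overlaps it on the other strand, had r = 0.99 and rho = 0.99, and Gm16567 had 31.5 to 40.03% of the C1s1 count. C1ra and C1rb had r = 0.96 and rho = 0.97, with C1rb at 21.0 to 33.1% of the C1ra count and 98.0% identity between the transcripts. C1s1 and C1s2 had r = 0.84 and rho = 0.85, with C1s2 at 4.91 to 18.3% of the C1s1 count and 95.9% identity. Adjusted p-values of r for these 3 pairs were 0.00027, 0.000608 and 0.00424 (permutation, n = 12). The part of shared reads in these correlations was not tested.

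Marker lists of cell types showed where the blocks stood relative to the makeup of the tumours. The score of a list averages log2 CPM over its genes. In bulk tumours fewer cells of a type and less RNA per cell cannot be told apart. The 14 macrophage markers, among them Csf1r, Adgre1, Cd68 and Mrc1, summed to 364 to 546 CPM in WT, 405 to 569 CPM in C3_KO and 452 to 605 CPM in S1pr1_KO. C1qa showed no relation to their score past the test, with r = 0.15 and rho = -0.08 (p = 0.667 and p = 0.817, permutation, n = 12). C1s1 followed it, with r = 0.91 and rho = 0.80 (adjusted p = 0.000675 and 0.0122, permutation, n = 12), and r = 0.82 without S1pr1_KO replicates 1 and 2. C2 followed it too, with r = 0.86 and rho = 0.91 (adjusted p = 0.00316 and 0.00162), and r = 0.93 without the 2 libraries farthest from the median of C2. Marco, 1 of the 14 markers, was at 9.00 and 2.66 CPM in S1pr1_KO replicates 1 and 2 and at most 0.239 CPM elsewhere. Its part in the macrophage score, which weights all genes alike, was not tested. The score also joins markers that differed in C3_KO replicate 3, the lowest library for C1qa. Csf1r, Cd68, Trem2, Fcgr1, Ms4a7 and Aif1 were lowest of the 12 libraries there, and the rest of the 14 were not. Cd14, at 175 CPM there, lay above every WT and S1pr1_KO library. The relation of C1qa to single markers was not tested.

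C1s1 also followed the 9 fibroblast markers (r = 0.90, rho = 0.93, adjusted p = 0.00081 for both, permutation, n = 12) and the 7 dendritic cell markers (r = 0.90, rho = 0.85, adjusted p = 0.00081 and 0.0053). It ran against the 8 epithelial markers, with r = -0.84 and rho = -0.86 (adjusted p = 0.00508 and 0.0053, permutation, n = 12). C2 had r = 0.87 with dendritic cell markers and r = 0.78 with fibroblast markers (adjusted p = 0.00261 and 0.0142, permutation, n = 12). Within genotypes C1s1 kept r = 0.90 with macrophage, 0.91 with fibroblast and -0.81 with epithelial markers. Of the 6 lists, Masp1 was closest to the 8 endothelial markers, with r = 0.74 and rho = 0.69 (adjusted p = 0.0252 and 0.0548, permutation, n = 12), and r was 0.51 without S1pr1_KO replicates 1 and 2. Its r of 0.73 with dendritic cell markers (adjusted p = 0.0269, permutation, n = 12) was 0.28 without those libraries. Within genotypes Masp1 had r = 0.57 with macrophage, 0.53 with dendritic cell and 0.48 with endothelial markers, so the order of the lists changed. Adipocyte markers, highest in S1pr1_KO replicates 1 and 2, were not among the 6 lists, so their relation to Masp1 was not tested. C1s1 and endothelial markers had r = 0.69 and rho = 0.71 (adjusted p = 0.0425 and 0.0496, permutation, n = 12), and r = 0.41 without the same libraries. C4b had r between -0.13 and 0.18 with each of the 6 lists tested. Without WT replicates 1 and 3, the libraries farthest from its median, C4b had r = 0.64 with macrophage, 0.56 with fibroblast, 0.45 with dendritic cell and -0.50 with epithelial markers, so the flat values rest on those libraries. The highest value of C1qa was with 10 interferon-gamma target genes (r = 0.67, rho = 0.52, adjusted p = 0.0684 and 0.224, permutation, n = 12), and it was 0.33 without the 2 libraries farthest from the median of C1qa.

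**Figure D4:**
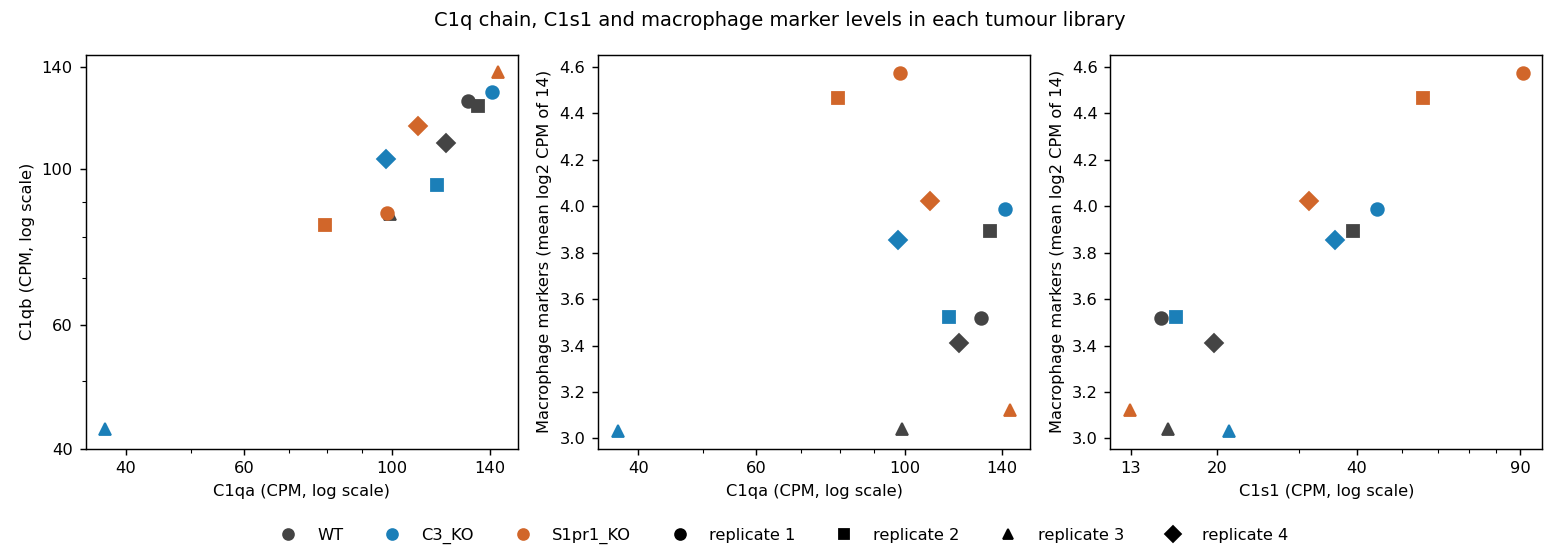
Each point is 1 of 12 libraries, coloured by genotype and shaped by replicate, with C1qb against C1qa in CPM (log axes, left) and the mean log2 CPM of 14 macrophage markers against C1qa (middle) and against C1s1 (right). C1qb tracks C1qa (r = 0.97), the mean of the macrophage markers shows no trend with C1qa (r = 0.15), and it climbs with C1s1 (r = 0.91). Single markers can differ from this mean.

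Relative to the macrophage genes Csf1r and Adgre1, C1qa was most even in WT. Ratios to the other macrophage markers were not computed. The ratio of C1qa to Csf1r in FPKM, the receptor gene on which most macrophages depend, was 11.9 to 13.3 in WT, 5.46 to 11.9 in C3_KO and 5.79 to 12.1 in S1pr1_KO. Its mean was 12.7 ± 0.636 in WT, 8.64 ± 2.86 in C3_KO and 8.41 ± 2.64 in S1pr1_KO (SD, n = 4). The log2 difference from WT was -0.62 in C3_KO and -0.65 in S1pr1_KO, each with p = 0.0571 in a two-sided exact permutation test and p = 0.566 after adjustment over 33 such tests of 11 ratios. The ratio of C1qa to Adgre1, which codes for the macrophage surface protein F4/80, was 42.1 to 61.8 in WT, 16.6 to 35.97 in C3_KO and 11.8 to 50.1 in S1pr1_KO. WT and C3_KO did not overlap in this ratio (log2 difference -1.002, exact permutation p = 0.0286, adjusted p = 0.566), and that p is the smallest that 4 libraries against 4 allow. S1pr1_KO differed from WT by -1.37 (exact permutation p = 0.0857, adjusted p = 0.566), and its replicate 3 lay within the WT range. None passed the adjustment, and the ratios were chosen after the levels had been seen. Csf1r itself ranged over 42.0 to 60.8 CPM in WT, 37.8 to 75.3 CPM in C3_KO and 66.2 to 76.2 CPM in S1pr1_KO. Adgre1 ranged over 5.00 to 9.93 CPM in WT, 6.54 to 18.4 CPM in C3_KO and 8.94 to 27.5 CPM in S1pr1_KO. Both denominators thus reached higher in the knockout strains, and these 2 genes do not stand for all 14 markers. Trem2, another of the 14, went the other way. It was at 8.83 to 10.7 CPM in WT, 3.06 to 8.71 CPM in C3_KO and 5.73 to 8.91 CPM in S1pr1_KO. Of the 14 macrophage markers, 9 had a fitted log2 fold change above 0 and 5 below in C3_KO against WT. In S1pr1_KO against WT the counts were 11 and 3.

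**Figure D5:**
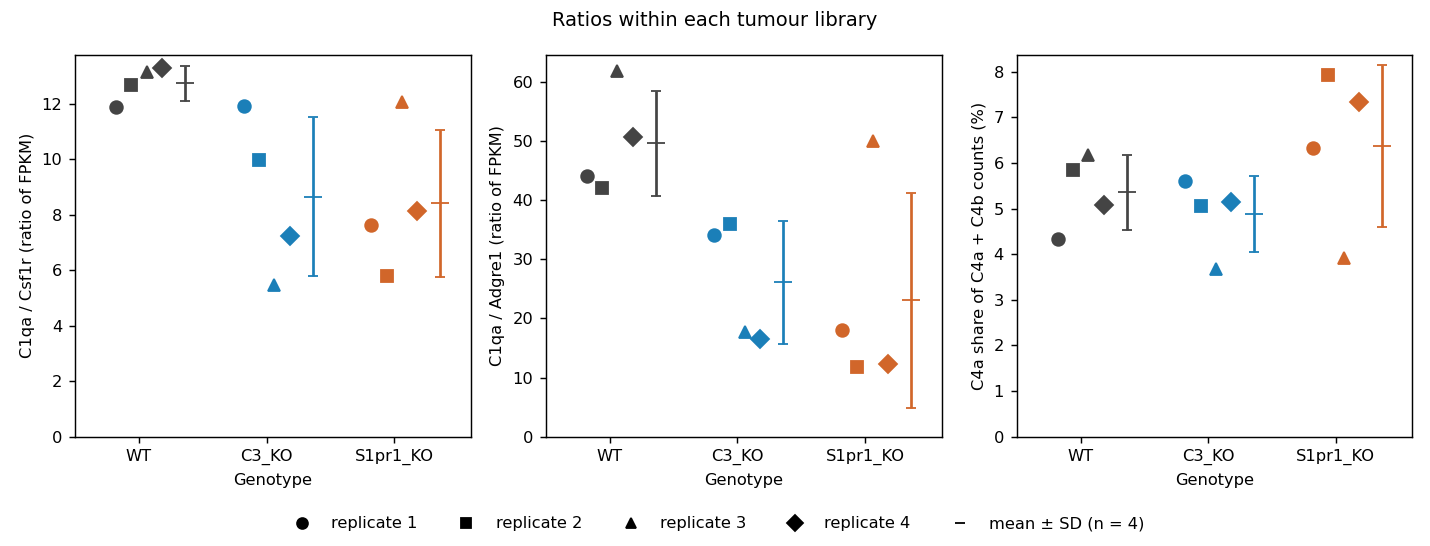
Ratio of C1qa to Csf1r and of C1qa to Adgre1 in FPKM, and C4a reads as a percent of C4a plus C4b reads (y axes from 0), by genotype, with 1 point for each library and a bar for the mean ± SD of 4 libraries. WT lies at 11.9 to 13.3 in the first panel and 42.1 to 61.8 in the second, above most libraries of the knockout strains, and the third panel overlaps throughout.

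Other genes of the initiation steps gave the same count of calls. Of the 3 close relatives of the C1 proteases, none was called by edgeR in any comparison, and C1rb and C1rl were each at a mean of 8.13 CPM over 12 libraries. Of 6 recognition genes of the lectin pathway, only Fcna, Colec10 and Colec11 passed the filter on low counts, while the mannose-binding lectin genes Mbl1 and Mbl2 and the ficolin gene Fcnb did not. Fcna, a ficolin gene, was at a mean of 1.37 CPM, and Colec11, a collectin gene, was at 0.427 CPM. None of these recognition genes was called.

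Of 8 inhibitors of the initiation steps, 7 were tested and none was called. Serping1, which codes for the C1 inhibitor that removes C1r, C1s and the MASPs, was at 27.1 to 64.8 CPM in WT, 34.0 to 66.7 CPM in C3_KO and 31.9 to 91.3 CPM in S1pr1_KO, and its groups overlapped. Cr1l, which codes for the rodent convertase regulator Crry, was even, at 33.5 to 44.6 CPM over all libraries. Of 8 ligands of C1q, such as the antibody gene Ighm and the pentraxin gene Ptx3, 6 were tested and none was called. In C3_KO against WT the inhibitors had a median log2 fold change of 0.34 and the ligands -0.58, and in S1pr1_KO against WT 0.60 and 1.25.

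Of 7 receptors and binding proteins of C1q, all were tested and none was called, but 2 stood above every WT library in S1pr1_KO, against 2.78% of all genes. They were Lrp1, a scavenger receptor, and Cd93, once described as a C1q receptor on endothelial and myeloid cells, and Cd93 is named after its values were seen. Lrp1 was at 194, 143, 93.7 and 107 CPM in WT and at 295, 388, 217 and 213 CPM in S1pr1_KO (log2 fold change 1.05, SE 0.33, adjusted p = 0.236 from edgeR). Cd93 was at 18.0, 18.4, 8.50 and 11.1 CPM in WT and at 26.4, 27.4, 20.5 and 26.4 CPM in S1pr1_KO (log2 fold change 0.84, SE 0.27, adjusted p = 0.237 from edgeR). In C3_KO, Lrp1 was at 222, 212, 98.1 and 252 CPM, and Cd93 at 17.4, 25.8, 32.2 and 24.9 CPM. Most C3_KO libraries too lay above every WT library for both genes, so higher levels were not particular to S1pr1_KO. The endothelial markers summed to 66.0 to 137.5 CPM in WT, 121 to 173 CPM in C3_KO and 133 to 250.03 CPM in S1pr1_KO. Their relation to Cd93 was not tested. Calr, at a mean of 997 CPM, codes for calreticulin, and its log2 fold change in S1pr1_KO against WT was -0.40 (SE 0.39). In that comparison 4 of the 7 C1q receptors and binding proteins were above 0 and 3 below, the lowest -0.71 for C1qbp. C1qbp was at 137, 85.3, 123 and 85.7 CPM in WT and at 50.7, 46.2, 99.1 and 66.6 CPM in S1pr1_KO, and these groups overlapped. Of 8 neighbours of C2 and C4b in the MHC class III region, none was called, and their median log2 fold change was -0.25 in S1pr1_KO against WT.

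Genes whose levels were most like those of the members were ranked by Pearson r over 12 libraries among 13142 to 13144 genes whose average log2 CPM reached 1. For the mean of the C1q chains they were Arrb2, which codes for beta-arrestin 2 (r = 0.95, rho = 0.84), Parp10 (0.91, 0.71), Arhgef28 (0.89, 0.75), Rasl11b (0.89, 0.65) and Mrm1 (0.88, 0.65). Without the 2 farthest libraries Arrb2 kept r = 0.87, and the other 4 had r from 0.32 to 0.56, so those rest on these libraries. For the mean of C1ra and C1s1 they were Rassf2 (r = 0.97, rho = 0.93), Adcyap1r1 (0.97, 0.92), Dpep1 (0.96, 0.89), Dhdh (0.96, 0.83) and Tnfrsf13b (0.95, 0.91), with r of 0.90 to 0.97 without the 2 farthest libraries.

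For C2 the most alike genes were Mgl2, a lectin gene of macrophages and dendritic cells (r = 0.94, rho = 0.98), Odad1 (0.94, 0.92), Mturn (0.93, 0.95), Aox1 (0.93, 0.86) and Itih5 (0.92, 0.98). For C4b they were C4a (r = 0.92, rho = 0.92), Acad10 (0.84, 0.92), Gfap (0.84, 0.78), Acad12 (0.84, 0.87) and Ror2 (0.82, 0.76). After its near-identical copy, the likeness to C4b dropped. For Masp1 they were Pnpla3 (r = 0.89, rho = 0.81), Slc36a2 (0.88, 0.80), Chst15 (0.88, 0.80), Rasgrp2 (0.88, 0.67) and Trarg1 (0.87, 0.77), with r of 0.55 to 0.68 without the 2 farthest libraries. Each value is the highest of many, and the points share library and depth.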

How the data were processed

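Gene levels were analysed in 12 tumour libraries, 4 for each of 3 genotypes taken from the genotype labels. Replicate numbers follow sample order and only name a library, and no batch or pairing is labelled. Whether tumours of 1 genotype stem from different mice is not labelled, so p-values reflect only sample-to-sample spread, which may be technical. The authors deposited whole-number counts per gene, with column totals of 230.4 to 484.0 M (M, 1000000 counts), and a table of FPKM, of which 682317 of 682320 values equalled the count divided by the deposited length and total within a relative tolerance of 0.0001. The submitters' processing notes name StringTie and GRCm39 (mm39) without a version. For the aligner, the counter and the use of strand, nothing is given in the sources used here. Among counts from 1 to 50, 60.2 to 64.4% were even, so a fragment may give more than 1 count, and depth in fragments is lower than these totals.

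Counts were tested with edgeR 4.0.16 in R 4.3.3 (filter on low counts, TMM scaling, robust quasi-likelihood fit to all 12 libraries, 9 residual degrees of freedom), with Benjamini-Hochberg adjustment over 30660 genes, and the code was tested on simulated data. CPM uses TMM-scaled library sizes, and log2 CPM a prior count of 2. Alternatives were DESeq2 1.42.0, limma 3.58.1 (voom with quality weights, and log2(FPKM + 1) for genes with FPKM of at least 1 in 4 libraries), other filters and scalings, fewer libraries, and leaving out each library. The members and 18 gene lists were chosen with earlier results of these data known. The overlapping genes, motifs, the correlations and all ratios except those among C1q chains, C1s1 to C1ra and C4a to C4b were chosen after values were seen. Named genes were the members, the 1 or 2 of highest mean level in each pathway list where none was called, and the 5 genes most like each profile, leaving out predicted genes. Sequence comparison of transcripts used GENCODE M21, an older build than the authors', so no coordinates of the files are given.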

Additional observations from a re-analysis of the deposited data

Results flagged for a closer look

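C1qc in C3_KO replicate 3 was at 29.0 CPM, while the other 3 C3_KO libraries lay between 72.2 and 79.7 CPM. The gap to the nearest library was 0.852 of the whole range, above Dixon's 95% critical value for 4 libraries. It was the only 1 of 30 groups, 10 genes in 3 genotypes, to pass that limit, and chance alone passes about 1 in 20 such groups. The same library was the lowest of all 12 also for C1qa, C1qb, C1ra, C2, C4a and C4b, so the low level was not particular to C1q, and it held 69106 CPM of milk protein genes. The part of that in the low levels was not tested.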

How the results depend on the processing

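No member was called by edgeR under another filter, another scaling, the 2 genotypes alone, or without any 1 library. The exception among all alternatives was limma-voom with quality weights, with 4 members called in S1pr1_KO against WT. The number of all genes called moved more: in C3_KO against WT from 0 to 84 with DESeq2, 5 with limma-voom and 1 with limma on log2(FPKM + 1); in S1pr1_KO against WT to 901, 7837 and 46, to 10 with no filter, 23 with a CPM filter and 68 with only the 2 genotypes; and in S1pr1_KO against C3_KO to 121 with DESeq2. Leaving out 1 library gave 0 to 8, 0 to 1330 and 0 to 3 genes called, in that order. The highest S1pr1_KO counts came without S1pr1_KO replicate 3 (1330), C3_KO replicate 4 (32) and C3_KO replicate 1 (9), and the 8 came without S1pr1_KO replicate 3. The cause was not tested.

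Signs turned for members whose value did not pass the test. In S1pr1_KO against WT, C1qc was 0.031 with DESeq2, 0.0042 with limma-voom, 0.16 with FPKM, 0.043 with no filter, 0.060 with the CPM filter, 0.031 with relative log expression, 0.11 with upper quartile scaling, 0.0024 with only the 2 genotypes and 0.059 without C3_KO replicate 3 and S1pr1_KO replicates 1 and 4, which held many milk or salivary transcripts. C1qb was 0.078 with FPKM, 0.046 with upper quartile scaling and 0.051 without those 3 libraries, and C4b was 0.32, 0.12 and 0.0046 with limma-voom, FPKM and upper quartile scaling. Without those 3 libraries C1qc was 0.038 in C3_KO against WT, and C1qa, C1ra and C2 were -0.047, -0.054 and -0.48 in S1pr1_KO against C3_KO, in place of 0.13, 0.33 and 0.13. Leaving out 1 library gave, in S1pr1_KO against WT, -0.18 to 0.076 for C1qb, -0.10 to 0.13 for C1qc, -0.046 to 0.57 for C4a and -0.30 to 0.11 for C4b. It gave -0.36 to 0.010 for C1qc in C3_KO against WT, and in S1pr1_KO against C3_KO -0.14 to 0.36 for C1qa, -0.048 to 0.40 for C1qb, -0.018 to 0.35 for C1qc, -0.30 to 0.57 for C2 and -0.095 to 0.48 for Masp2. The value of C1s1 in S1pr1_KO against WT was 0.63 to 1.51. Masp1 is not in the FPKM alternative, since it lay below that filter. On the FPKM scale, 1 of the 5 genes most like C1ra and C1s1, 1 of those most like C2 and 2 of those most like Masp1 were shared. No paired analysis was possible because the labels carry no replicate numbers, litters or batches that tie libraries across genotypes.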
